A study of Mus musculus with 10 samples.

Results

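The 10 genes described here mark the change of epithelial cells into mesenchymal cells: the epithelial genes Cdh1 and Epcam, the mesenchymal genes Cdh2, Vim and Fn1, and the transcription factors Snai1, Snai2, Zeb1, Zeb2 and Twist1. They were chosen by name, and every probe whose transcript accession belongs to one of them was taken: 12 probes, printed as 21 spots, of 55681 probes and 59305 spots on each array. Named probes covered 20972 genes in all. Cdh2 and Zeb2 had 2 probes each and the other 8 genes had 1. The test took probes that stood well above background on 3 or more arrays, and all 10 genes had such a probe. RefSeq places Cdh1 on chromosome 8, Epcam on 17, Cdh2 and Zeb1 on 18, Vim, Snai1 and Zeb2 on 2, Fn1 on 1, Snai2 on 16 and Twist1 on 12, and the probes lie in their transcripts by accession. The array design refers to another genome build (mm9), so no gene coordinates are given.

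Mouse E14 embryonic stem (ES) cells, of 129/Ola background and grown on gelatin with Lif at 1000 U/ml, were transfected with plasmids and their RNA was hybridised to single-colour Agilent arrays. The Hottip group (4 arrays) received pooled guide RNAs to the promoter of Hottip, a long noncoding RNA gene beside Hoxa13, together with dCas9-VP160, an inactive Cas9 joined to a transcriptional activation domain. The Hoxa13 group (3 arrays) received guides to the Hoxa13 promoter with the same activator, and the control (3 arrays) received non-targeting guides with dCas9 that, by the study's account, carried no VP160, so the control differs from both other groups in the activation domain as well as in the guides. All groups were kept in 2 ug/ml puromycin from 24 h after transfection for 24 h, and RNA was taken at 48 h. The study describes the replicates as biological, and the labels do not say which arrays, if any, came from cultures handled together.

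A level here is the log2 signal of a probe minus the 75th percentile of its array, so that a level of 0 is as bright as that percentile. Levels of different probes do not compare, because probes differ in how brightly they hybridise, and each gene is set only against itself. A gene was called when limma's adjusted p was under 0.05 over all tested probes.

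No probe was listed under Hottip, and the guides to Hoxa13 could be checked only on Hoxa13, which had 2 probes. Both were well above background on the 4 Hottip arrays, at levels of 2.58 to 3.27 and 3.17 to 4.16. On the 3 arrays labelled Hoxa13 neither was well above background, at levels of −5.60 to −4.21 and −4.80 to −3.68, and the control arrays lay at −6.12 to −4.48 and −5.84 to −3.46. The study reports a rise of Hoxa13 with guides to either promoter, and no change of the other Hoxa genes with those to Hoxa13. Here the rise was seen on the Hottip arrays only. The targeted gene therefore went against the label of these 3 arrays, which are called the arrays labelled Hoxa13 throughout, and every difference drawn from them below carries that limit. Arrays 1 and 2 of them were also the only arrays on a slide of their own, while all the others shared the other slide. On their array 1 the slope of the spiked-in standards was 1.16, against 0.90 to 0.98 on the other 9. The share of spots well above background was 32.9% to 42.5% per array, and 0.312% to 7.28% of spots were left out as outliers.

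Epithelial cells hold to each other through E-cadherin (Cdh1) and Epcam and have a top and a bottom surface. In the transition they lose these contacts and take up N-cadherin (Cdh2), vimentin filaments (Vim) and fibronectin (Fn1), under transcription factors of the Snail, Zeb and Twist families that repress Cdh1. ES cells in culture carry E-cadherin and other epithelial genes, and their descendants go through the transition at gastrulation in the embryo.

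Across the study, the epithelial genes of the set (Cdh1 and Epcam) showed no difference between the groups that passed the test. Nor did its mesenchymal genes (Cdh2, Vim and Fn1). The clearest differences of the set were in 2 transcription factors, on the arrays with Hottip guides: Snai1 had a level 2.31-fold higher than in the control and Zeb2 a level 3.04-fold lower, each with every Hottip array outside the range of the 3 control arrays. Such a lack of overlap was found for 13.2% of all tested probes in that comparison. The Zeb2 probe was well above background on 1 of the 4 Hottip arrays, so its fold rests largely on dim signal. Neither gene passed the adjustment over all tested probes (limma, adjusted p = 0.272 and 0.0991). The number of member genes called was 0 of 10 in each of the 3 comparisons. Over all tested probes the share called was 0.718% (Hottip minus control), 0.175% (labelled Hoxa13 minus control) and 0.381% (Hottip minus labelled Hoxa13).

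**Figure D1:**
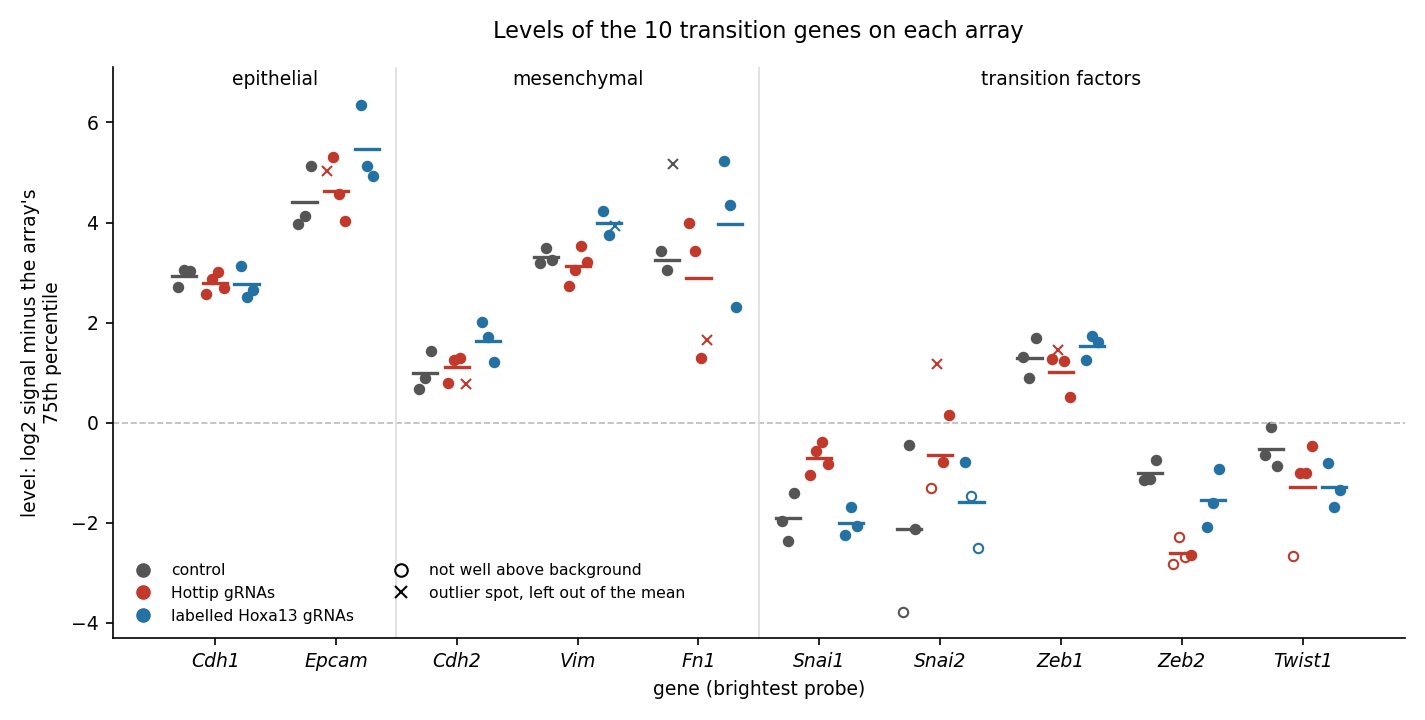
Level of each of the 10 genes on each array, as log2 signal minus the array's 75th percentile (vertical axis), by gene and group (horizontal axis), with bars at group means. Snai1 on the 4 Hottip arrays lies between −1.04 and −0.39, above all 6 other arrays, and Zeb2 lies between −2.83 and −2.28, below them. Levels compare within a gene only.

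Members of the Snail and Zeb families are known to bind an E-box, the hexamer CACCTG, which reads CAGGTG on the opposite strand and is a special case of the general E-box CANNTG. It was searched on both strands in the promoters of the RefSeq table for build GRCm38.p6, each 300 bases long, from 250 bases before to 50 bases after the start of transcription. The table held promoters of 5 members, 4 for Zeb2 and 1 each for Epcam, Vim, Snai1 and Twist1. Those of Epcam and Snai1 held the hexamer, as did 20.2% of all 32851 promoters in the table. The members are counted here as genes and the table as promoters, so no excess is read from this. The 3 matches are shown because they lie at the genes that such factors could bind, the Snai1 match being in the promoter of a factor of that family, and the hexamer is in capitals in each.

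Epcam, chr17:87635780-87635809, plus strand, hexamer beginning 187 bases before the start: gccagtagggccCACCTGctggaggaccgg

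Epcam, chr17:87635948-87635977, plus strand, hexamer beginning 19 bases before the start: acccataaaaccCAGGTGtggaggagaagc

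Snai1, chr2:167538057-167538086, plus strand, hexamer beginning 126 bases before the start: gcagcccaggcgCACCTGctccggtctcag

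Neither Vim nor Twist1 nor any of the 4 Zeb2 promoters in the table held these letters. A match is a description of the sequence, and no binding was measured here.

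The epithelial genes came first. Cdh1, which encodes E-cadherin, stood at 2.72, 3.06 and 3.03 on control arrays 1 to 3. Its level was 2.57, 2.87, 3.01 and 2.69 on Hottip arrays 1 to 4, and 3.13, 2.51 and 2.64 on the arrays labelled Hoxa13. All 10 arrays thus lay within 0.62 log2 units of each other and the groups overlapped. The spread within groups was smaller than that of most of the array: 2.54% of tested probes had a smaller moderated SD, and the Cdh1 probe was the mean of 10 spots where most probes had 1.

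The mean Cdh1 level with Hottip guides was 2.78 ± 0.19 (SD, n = 4) against 2.94 ± 0.19 (SD, n = 3) on the control arrays, and the 2 groups differed by −0.15 (SE 0.32, 95% interval −0.86 to 0.56, limma adjusted p = 0.999). On the arrays labelled Hoxa13 it was −0.17 from the control (SE 0.34, adjusted p = 0.843). The interval leaves room for a fall of up to 0.86, so a change of that size in Cdh1 could not be told from none with these arrays.

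Epcam, an adhesion molecule of epithelial and ES cells, varied more, from 3.97 to 6.35. It stood at 3.97, 4.14 and 5.13 on the control arrays and at 5.31, 4.57 and 4.03 on Hottip arrays 2 to 4. The spot on Hottip array 1 was marked as an outlier and is left out (5.03 if kept). The arrays labelled Hoxa13 gave 6.35, 5.12 and 4.94. All 3 groups overlapped, with array 1 labelled Hoxa13 alone above the rest.

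The Epcam difference between Hottip and control arrays was 0.22 (SE 0.54, 95% interval −0.98 to 1.43, limma adjusted p = 0.999). It was 0.90 with the column of the slide as a term and 0.98 with the row as a block beside it, both uncalled. In a fit of group, row and column the Epcam level was −0.93 from row 1 to row 2 (unadjusted p = 0.0129, adjusted p = 0.246) and −0.38 per column (unadjusted p = 0.0373). Between the arrays labelled Hoxa13 and the control it was 1.05 (95% interval −0.15 to 2.26, adjusted p = 0.474). Without array 1, whose standards had the steeper slope, that difference was 0.62, and on the slide that held all groups it was 0.52. In the authors' normalised values it was 0.25. There, with the outlier spot kept, the Hottip arrays lay above the control arrays, at 14.96 to 15.31 against 14.62 to 14.93, a difference of 0.36.

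The mesenchymal genes followed. The brighter Cdh2 probe stood at 0.68, 0.90 and 1.42 on the control arrays and at 0.79, 1.24 and 1.30 on Hottip arrays 1 to 3, with the outlier spot of array 4 left out. It gave 2.01, 1.71 and 1.21 on the arrays labelled Hoxa13. The dimmer Cdh2 probe gave 0.61, 0.68 and 1.21 in the control, 0.79, 0.84, 0.81 and 0.28 with Hottip guides, and 1.69, 1.55 and 1.38 on the arrays labelled Hoxa13. On the dimmer probe all 3 arrays labelled Hoxa13 lay above the other 7, whereas on the brighter probe array 3 did not.

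With Hottip guides Cdh2 was close to the control, at 0.11 (SE 0.40, adjusted p = 0.999) on the brighter probe and −0.16 (SE 0.33) on the dimmer one. Against the arrays labelled Hoxa13 the dimmer probe was lower with Hottip guides by a difference of −0.86 (SE 0.33, limma unadjusted p = 0.0241, adjusted p = 0.356) and the brighter one by −0.53 (SE 0.40). On the slide with all groups, which leaves 1 array labelled Hoxa13, the brighter probe differed by −0.10.

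Vim, the intermediate filament of mesenchymal cells, was 3.19, 3.49 and 3.25 in the control and 2.72, 3.06, 3.53 and 3.20 with Hottip guides. It was 4.24 and 3.75 on arrays 1 and 2 labelled Hoxa13, and the spot of array 3 was marked as an outlier (3.94 if kept). Both remaining values lay above all 7 other arrays. The difference from the control was −0.18 with Hottip guides (SE 0.35, adjusted p = 0.999) and 0.68 on the arrays labelled Hoxa13 (SE 0.42, adjusted p = 0.513). In the authors' normalised values the latter was 0.05 with the outlier spot of array 3 left out and 0.23 with it kept, and the groups overlapped. Both arrays behind it stood on the slide that held no other group, so slide and group cannot be told apart for Vim.

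Fn1, which encodes the matrix protein fibronectin, had the widest spread of the mesenchymal genes, from 1.29 to 5.22. The control arrays 1 and 2 gave 3.42 and 3.06, and Hottip arrays 1 to 3 gave 3.99, 3.42 and 1.29, with the outlier spots of control array 3 and Hottip array 4 left out. The arrays labelled Hoxa13 gave 5.22, 4.35 and 2.31. Every group thus held both high and low arrays, apart from the 2 control values. The Hottip minus control difference was −0.34 (SE 0.98, 95% interval −2.55 to 1.87, limma adjusted p = 0.999). It was 0.72 between the arrays labelled Hoxa13 and the control (SE 0.98, adjusted p = 0.767), and −0.93 with the slide as a block. Without array 1 labelled Hoxa13 it was 0.090 and without array 3 it was 1.55. It was as much as 2.29 with normexp background correction (unadjusted p = 0.0254, adjusted p = 0.484), and its unadjusted p was under 0.05 in 4 of 32 other ways of processing, none of them called.

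The Fn1 levels are described here by the place of the array on its slide, which holds 2 rows of 4 columns. Row and column were taken up after the values were seen, so the fit below describes the pattern that prompted it. In row 1 the level was 5.22 in column 1 (slide 1) and 3.99, 3.42 and 2.31 in columns 2 to 4 of slide 2. The outlier spot in column 1 of slide 2 stood at 5.17 if kept. In row 2 the level was 4.35 in column 1 of slide 1, and 3.42, 3.06 and 1.29 in columns 1 to 3 of slide 2. With a term for the column beside the groups and the row, Fn1 changed by −1.001 log2 units per column (SE 0.19, limma unadjusted p = 0.00132, adjusted p = 0.255). From row 1 to row 2 it changed by −1.42 (SE 0.45, limma unadjusted p = 0.0158, adjusted p = 0.258). No probe of 22838 was called for the column, 2032 had an unadjusted p under 0.05, and the median change per column was −0.03. The other 9 members had unadjusted p-values for the column of 0.0373 or more. With the column as a term, Fn1 differed by 0.67 between the Hottip and the control arrays, the opposite sign, and with the row as a block and the column as a term by −0.12. The part that place had in the Fn1 values was not tested further.

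**Figure D2:**
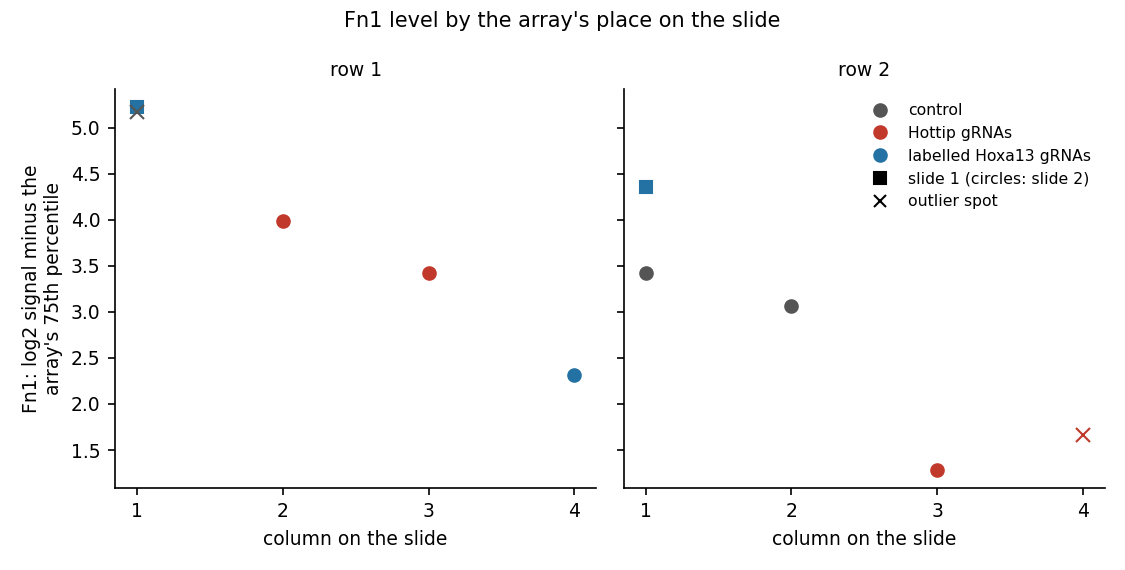
Fn1 level (log2 signal minus the array's 75th percentile, vertical axis) against the column of the array on its slide (horizontal axis), for each row, with groups in colour, slides by symbol and outlier spots as crosses. In row 1 the kept values run from 5.22 in column 1 to 2.31 in column 4, and in row 2 from 4.35 to 1.29 over columns 1 to 3.

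Snai1, the founding Snail factor and a repressor of Cdh1, was the transcription factor that set the Hottip arrays apart in the upward direction. It stood at −1.97, −2.37 and −1.40 on the control arrays and at −2.25, −1.69 and −2.07 on the arrays labelled Hoxa13. On the Hottip arrays it stood at −1.04, −0.57, −0.39 and −0.83. All 4 Hottip arrays lay above all 6 others, which overlapped with each other, and the probe was well above background on all 10 arrays.

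The Snai1 difference between Hottip and control arrays was 1.21 (SE 0.36, 95% interval 0.41 to 2.00), or 2.31-fold. Limma gave an unadjusted p of 0.00653 and an adjusted p of 0.272. A two-sided exact permutation test gave p = 0.0286, the smallest that 4 arrays against 3 allow. That value arises only where the groups lie apart, so it restates the lack of overlap and is no further support. In this comparison 13.2% of tested probes did not overlap. Over 32 other ways of processing the arrays the difference lay between 0.96 and 1.47 with an adjusted p of 0.0871 to 0.741, and its unadjusted p was under 0.05 in all 32. The Hottip arrays stood above those labelled Hoxa13 by 1.30 (SE 0.36, adjusted p = 0.206), and by 1.37 on the slide that held all groups. Between the arrays labelled Hoxa13 and the control it was −0.09 (95% interval −0.94 to 0.76).

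Zeb2, a zinc-finger repressor that also acts on Cdh1, set the same arrays apart downward. Its brighter probe stood at −1.14, −1.13 and −0.74 on the control arrays and at −2.83, −2.28, −2.69 and −2.65 on the Hottip arrays. It gave −2.08, −1.61 and −0.92 on the arrays labelled Hoxa13. All 4 Hottip arrays lay below all 6 others, and on 3 of them the probe was not well above background. Arrays 1 and 2 labelled Hoxa13, from the separate slide, lay between the Hottip and the control arrays, and array 3 lay within the control range.

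As fitted, the Zeb2 difference between Hottip and control arrays was −1.61 (SE 0.37, 95% interval −2.41 to −0.80), a level 3.04-fold lower. With 1 of the 4 Hottip arrays well above background, the size of this difference is uncertain. Limma gave an unadjusted p of 0.00111 and an adjusted p of 0.0991. The two-sided exact permutation p was 0.0286, which again only restates that the groups did not overlap. Over 31 other ways of processing, the adjusted p lay between 0.00798 and 0.938. It was called in 2 of them, with normexp background correction and quantile normalization (adjusted p = 0.00798) and with the authors' normalised values (difference −1.73, adjusted p = 0.0200). Against the arrays labelled Hoxa13 the Zeb2 level of the Hottip arrays differed by −1.07 (SE 0.37, adjusted p = 0.309), and by −1.69 on the slide with all groups. The arrays labelled Hoxa13 differed from the control by −0.53 (SE 0.39, adjusted p = 0.573).

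The dimmer Zeb2 probe could not show a difference either way. It was well above background on none of the 10 arrays, at levels from −5.66 to −2.89, so no difference is read from it. With the probes of Zeb2 averaged after centring, the difference of the gene was −0.59, a value that includes this background signal.

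The difference of Snai1 and Zeb2 within an array is free of the array's scaling, and it was compared between groups only. Snai1 minus Zeb2 was −1.23 to −0.66 on the 3 control arrays, −1.16 to −0.08 on the 3 labelled Hoxa13 and 1.71 to 2.30 on the 4 Hottip arrays. The sizes depend on how brightly each probe hybridises, and only the shift between groups is read from them. The mean was 1.90 ± 0.27 (SD, n = 4) with Hottip guides against −0.91 ± 0.29 (SD, n = 3) in the control, where 3 of the 4 Hottip values use a Zeb2 signal not well above background. As both genes were picked here for their values, this shift is a description and was given no test.

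**Figure D3:**
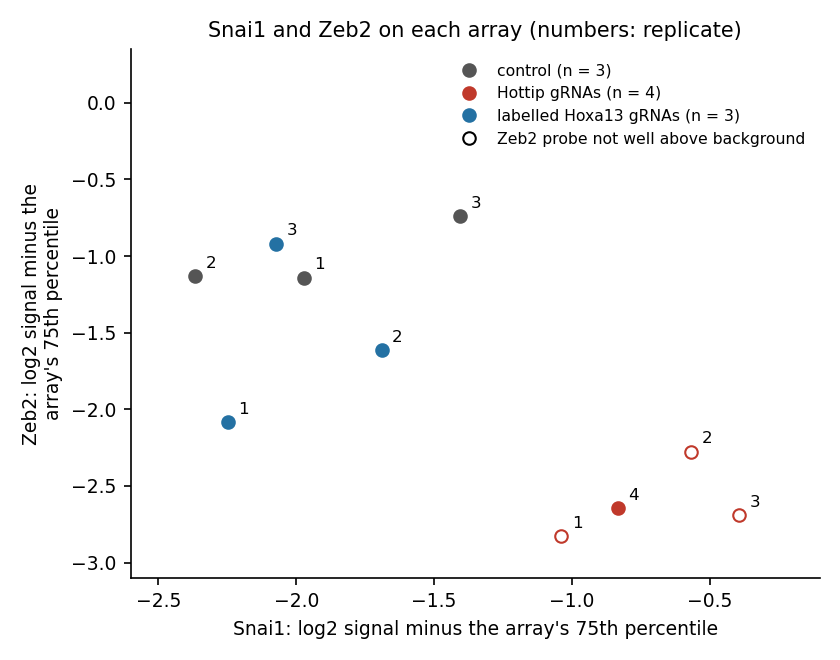
Zeb2 level (vertical axis) against Snai1 level (horizontal axis), both as log2 signal minus the array's 75th percentile, 1 point an array with its replicate number, coloured by group. The 4 Hottip arrays lie at Snai1 levels of −1.04 to −0.39 and Zeb2 levels of −2.83 to −2.28, apart from the 6 others.

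Snai2 (Slug), the other Snail factor of the set, varied too much within groups to tell them apart. It stood at −3.79, −0.45 and −2.13 in the control, at −1.31, −0.79 and 0.16 on Hottip arrays 1, 3 and 4, and at −0.78, −1.47 and −2.50 on the arrays labelled Hoxa13. The spot of Hottip array 2 was left out as an outlier (1.17 if kept), and 6 of the 10 arrays had the probe well above background. The Hottip minus control difference was 1.47 (SE 0.81, 95% interval −0.33 to 3.28, limma adjusted p = 0.773). It was 0.64 without control array 1, the lowest, and 2.31 without control array 2.

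Zeb1, the close relative of Zeb2, gave 1.32, 0.89 and 1.70 in the control and 1.28, 1.23 and 0.51 on Hottip arrays 1, 3 and 4, with the outlier spot of array 2 left out. It gave 1.25, 1.74 and 1.61 on the arrays labelled Hoxa13, and all groups overlapped. The Hottip minus control difference was −0.30 (SE 0.40, 95% interval −1.19 to 0.59, adjusted p = 0.999). Whether Zeb1 and Zeb2 differed in their response was not tested.

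Twist1, a basic helix-loop-helix factor, stood at −0.64, −0.08 and −0.86 in the control. It stood at −2.67, −1.003, −1.002 and −0.46 with Hottip guides and at −0.80, −1.69 and −1.35 on the arrays labelled Hoxa13. The lowest value, on Hottip array 1, was the only one not well above background, and the groups overlapped. The difference from the control was −0.75 with Hottip guides (SE 0.52, limma adjusted p = 0.887), or −0.29 without array 1, and −0.75 on the arrays labelled Hoxa13 (SE 0.55, adjusted p = 0.575).

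**Figure D4:**
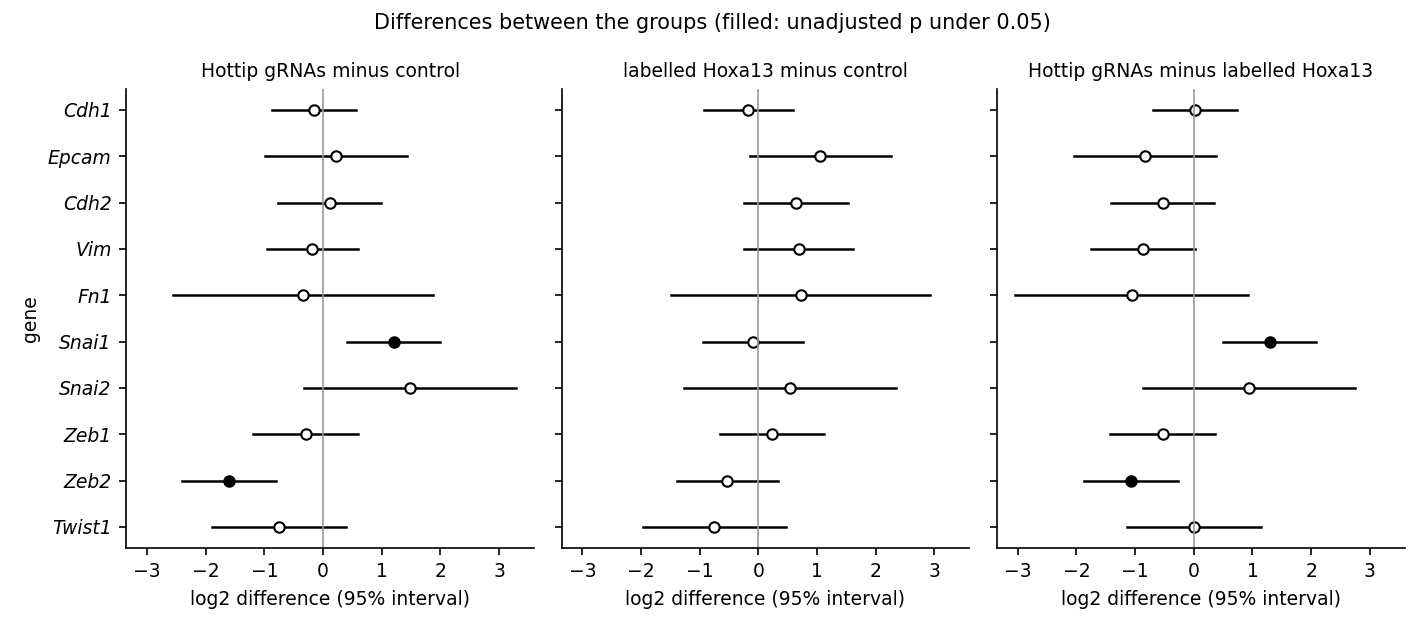
Log2 difference (horizontal axis) with its 95% interval for each gene (vertical axis) in the 3 comparisons, with filled points where limma's unadjusted p was under 0.05. Snai1 (1.21) and Zeb2 (−1.61) are filled in the comparison of Hottip guides with the control, and again, at 1.30 and −1.07, against the arrays labelled Hoxa13.

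Counted over the set, the comparison of Hottip guides with the control called 0 of 10 members, where 0.718% of 22830 tested probes were called. Snai1 and Zeb2 had an unadjusted p under 0.05, 2 of 10 where 8.05% of tested probes had one, and the same genes were those whose groups did not overlap, where 13.2% of probes did not. The median difference of the members was −0.17 against −0.01 over all tested genes, with 4 members above 0 and 6 below.

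Between the arrays labelled Hoxa13 and the control, 0 of 10 members were called (0.175% of probes) and none had an unadjusted p under 0.05 (11% of probes). With the brightest probe of each gene, the groups did not overlap for Vim alone, on 2 arrays against 3 (23.5% of probes). The dimmer Cdh2 probe did not overlap either, on 3 arrays against 3. The 3 mesenchymal genes had differences of 0.64 to 0.72, that of Fn1 resting on single arrays as given above, the median of the 10 members was 0.39 and that of all tested genes was 0.16. The 4771 tested probes with a mean level above 3 had a median of 0.63, and Vim and Fn1 were among them while Cdh2 was not. The part of signal strength in these differences was not tested.

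Between Hottip arrays and those labelled Hoxa13, 0 of 10 members were called (0.381% of probes). Snai1 and Zeb2 had an unadjusted p under 0.05 (11.9% of probes), and the groups did not overlap for the brightest probes of Snai1, Zeb2 and Vim (17.4% of probes), nor for the dimmer Cdh2 probe. The 3 mesenchymal genes had differences of −1.06 to −0.53, the members had a median of −0.53 and all tested genes a median of −0.22. The median over the 4772 probes with a mean level above 3, which held Epcam, Vim and Fn1 of the members, was −0.52. The comparisons share arrays, so their values are not independent of each other.

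Wider lists of genes of the same process were described by their counts. Of 38 other epithelial genes, 36 were tested, and 1 (where 0.718% of all tested probes were called) rose with Hottip guides against the control: Krt19, a simple-epithelial keratin, from −0.94 ± 0.23 (SD, n = 3) to 1.02 ± 0.15 (SD, n = 4). Its difference was 1.96 (SE 0.34, limma adjusted p = 0.0262), and it was no longer called in 17 of 32 other ways of processing, among them leaving out any single Hottip array or control array 1 or 2. Marveld2, a tight-junction protein, was the lowest of the list at −1.41 (adjusted p = 0.422). The median of the 36 was 0.23, with 21 above 0 and 15 below. No gene of the list was called on the arrays labelled Hoxa13 against the control, nor between the Hottip arrays and those, where 9 of 36 had an unadjusted p under 0.05 on the higher side with Hottip guides and 1 on the lower (11.9% of all tested probes had one in either direction). In that comparison Lsr was the highest at 2.35 (adjusted p = 0.314), or 1.16 without array 3 labelled Hoxa13, and Ctnna1, the catenin that links cadherins to actin, the lowest at −1.71 (adjusted p = 0.447). Against the control such a p was found for 3 higher and 1 lower with Hottip guides (8.05% of probes) and for 0 higher and 5 lower on the arrays labelled Hoxa13 (11% of probes). On the arrays labelled Hoxa13 the largest differences from the control were in Tjp3, a tight-junction scaffold (1.77, adjusted p = 0.494), and Lsr, a receptor at tricellular junctions (−2.19, adjusted p = 0.452). Each rested largely on 1 array, as Tjp3 differed by 0.32 without control array 3 and Lsr by −1.01 without array 3 labelled Hoxa13.

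Of 30 other mesenchymal and matrix genes, 18 were tested, of which 1 was called with Hottip guides against the control (0.718% of probes). Tgfbi, a matrix protein named for its induction by TGF-beta, fell with Hottip guides from 4.15 ± 0.41 (SD, n = 3) to 0.90 ± 0.34 (SD, n = 3, with the outlier spot of array 1 left out), by 3.25 on the log2 scale (SE 0.41, adjusted p = 0.00646). On the arrays labelled Hoxa13 it stood at 1.86 ± 0.43 (SD, n = 3), with a difference from the control of −2.28 that did not pass (adjusted p = 0.0872). The Tgfbi call with Hottip guides was lost in 4 of 32 other ways of processing (adjusted p = 0.117 to 0.181), while the difference lay between −3.51 and −2.76 in all 32, with an unadjusted p under 0.05 in each. Col3a1, a fibrillar collagen, was the highest of the list with Hottip guides at 1.40 (adjusted p = 0.939), but the difference was 0.092 without Hottip array 4, the only Hottip array with the probe well above background. The median of the 18 was −0.22.

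The smooth-muscle cytoskeletal genes Tagln and Acta2 were the 2 genes of that list that rose on the arrays labelled Hoxa13 against the control, 2 of 18 where 0.175% of probes were called. Tagln, which encodes transgelin, went from −0.31 ± 0.30 (SD, n = 3) in the control to 2.24 ± 0.10 (SD, n = 3), a difference of 2.54 (SE 0.36, limma adjusted p = 0.0259). Acta2, smooth-muscle actin, went from −2.80 ± 0.25 to −0.30 ± 0.20, a difference of 2.50 (SE 0.36, adjusted p = 0.0275), with 1 of the 3 control arrays well above background, so that the control level is uncertain. The Acta2 probe entered the test only through the 3 arrays labelled Hoxa13, where it was bright, so its calls do not stand independently of the filter. The count of 2 of 18 includes Acta2, so nothing is read from that count. On the slide that held all groups the differences were 2.56 for Tagln and 2.57 for Acta2, neither called with the slide as a block (adjusted p = 0.122 for each). The calls were lost in 16 of 32 and 19 of 31 other ways of processing, and leaving out any single array labelled Hoxa13, or control array 1 or 2, ended both.

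With Hottip guides Tagln differed from the control by 0.16 (adjusted p = 0.999), and Acta2 was not well above background on any Hottip array or on 2 of the 3 control arrays, so no difference is read from it. Both genes were lower on the Hottip arrays than on those labelled Hoxa13, Tagln by a difference of −2.39 (adjusted p = 0.0188) and Acta2 with an adjusted p of 0.0233. Leaving out any single array labelled Hoxa13 or Hottip array 4 ended both calls (limma adjusted p = 0.0502 to 0.0889 for Tagln, 0.0708 to 0.0889 for Acta2), and leaving out Hottip array 2 or 3 ended that of Acta2 (adjusted p = 0.0637 and 0.0594). As Acta2 was dim on all 4 Hottip arrays, only a bound on the group means is given, at least 4.44-fold higher on the arrays labelled Hoxa13. The bound leaves out the spread between arrays and holds for the main processing alone. With normexp background correction the fitted difference was smaller, at −1.76. Sparc, a matrix glycoprotein, had a larger difference of −2.76 that did not pass (adjusted p = 0.265), on 3 Hottip arrays (1.25 to 3.84) against 2. Those 2 were arrays 1 and 2 labelled Hoxa13, from the separate slide, so slide and group cannot be told apart for Sparc. Col5a1, a fibrillar collagen, was the highest at 0.86 (adjusted p = 0.516). No other tested gene of the list was called, and 6 of the 18 had an unadjusted p under 0.05 on the lower side and none on the higher, where 11.9% of all tested probes had one. The 6 include Acta2 and Col1a1, which passed the filter only through the arrays labelled Hoxa13 and could hardly be other than lower with Hottip guides, so nothing is read from the count. All tested probes also lay lower in this comparison, with a median of −0.26 and 36.1% of genes above 0.

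**Figure D5:**
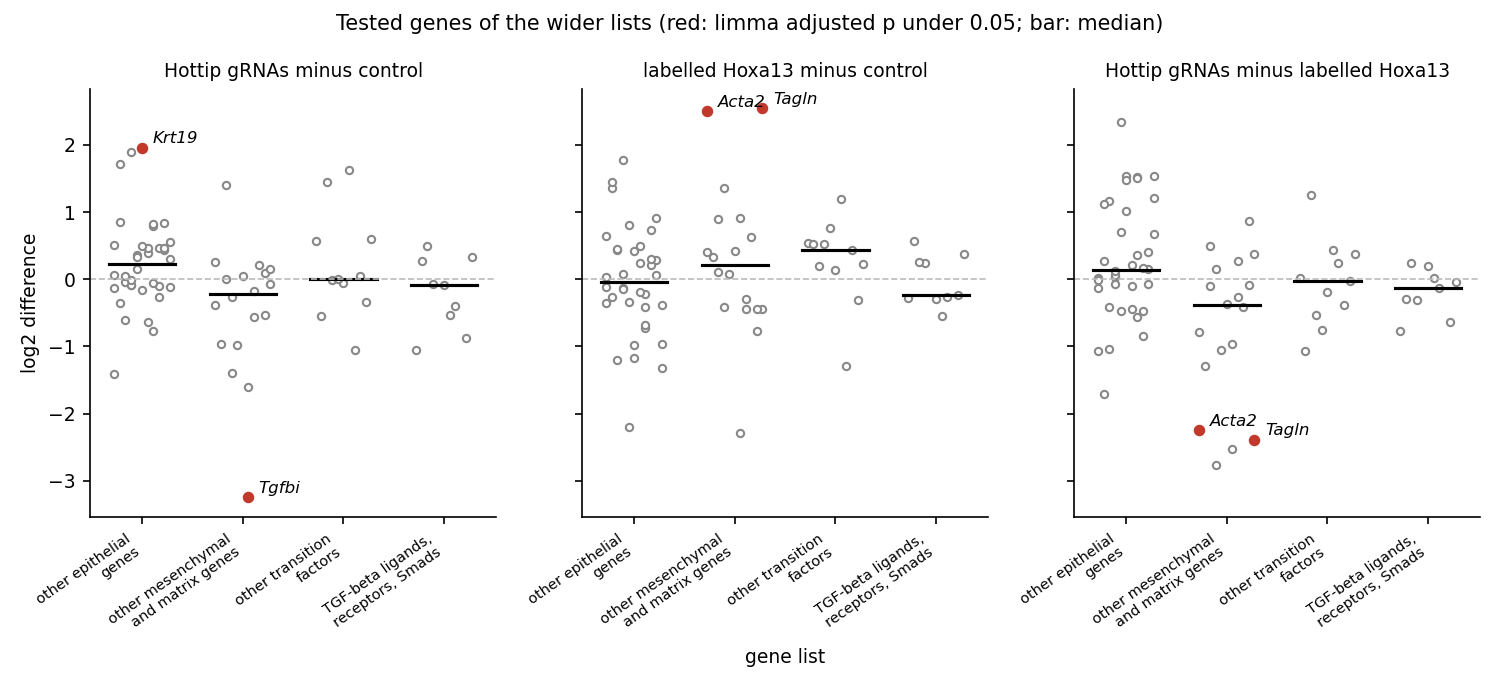
Log2 difference (vertical axis) of each tested gene of the 4 wider lists (horizontal axis) in the 3 comparisons, with red points at a limma adjusted p under 0.05 and bars at list medians. Krt19 (1.96) and Tgfbi (−3.25) are called with Hottip guides against the control, and Tagln and Acta2 on the arrays labelled Hoxa13 (2.54 and 2.50 against the control).

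Of 17 other transcription factors of the transition 11 were tested, and none was called in any comparison, where 0.175% to 0.718% of all tested probes were. With Hottip guides against the control, 2 of the 11 had a limma unadjusted p under 0.05 on the higher side and 0 on the lower (8.05% of probes). Msx1, a homeodomain factor, was the highest with Hottip guides, at 1.63 above the control (SE 0.36, adjusted p = 0.0858, well above background on 1 of 3 control arrays). Id2, an inhibitor of helix-loop-helix factors, was the lowest at −1.05 (adjusted p = 0.811), or −0.63 without Hottip array 1. The same 2 genes were highest and lowest on the arrays labelled Hoxa13 against the control, at 1.19 (limma adjusted p = 0.430) and −1.29 (adjusted p = 0.497). Between the Hottip arrays and those labelled Hoxa13, Msx1 differed by 0.44. Of 12 ligands, receptors and Smads of TGF-beta signalling, which is known to drive the transition, 9 were tested. None was called in any comparison, where 0.175% to 0.718% of all tested probes were, so nothing is read from this count. Smad7, the inhibitory Smad, was highest at 0.50 (adjusted p = 0.952) and Ltbp1, which binds the latent ligand, had the lowest fitted value but was not well above background on any Hottip array, so no difference is given.

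The cells were checked against markers of their labelled type and of others. All 12 ES cell markers were well above background on all 10 arrays, with summed signals, relative to the 75th percentile, of 163 to 416 in the control, 185 to 375 with Hottip guides and 358 to 541 on the arrays labelled Hoxa13. None of the 12 was called in any comparison, where 0.175% to 0.718% of all tested probes were. On the arrays labelled Hoxa13, 11 were higher than in the control and 1 lower (median 0.58). Of these, 3 had a limma unadjusted p under 0.05 (11% of probes). Tested probes with a mean level above 3 had a median of 0.63 in that comparison. With Hottip guides 9 were higher than in the control and 3 lower (median 0.23). Of 8 fibroblast markers none was well above background on every array, and Lum, Postn and Pdgfrb were so on none. Their sums were 0.921 to 2.72 in the control, 1.05 to 8.41 with Hottip guides and 1.40 to 2.46 on the arrays labelled Hoxa13.

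Of 7 early mesoderm markers, Eomes and Kdr were well above background on every array and Mesp1, Mixl1, Hand1 and Tbx6 on none, with sums of 1.13 to 1.86, 1.72 to 2.93 and 1.64 to 2.64 in the same order of groups. Of 10 extraembryonic endoderm markers, 5 were well above background on every array and Afp on none, with sums of 12.7 to 19.9, 12.2 to 18.4 and 11.6 to 13.8. Of the 8 endoderm markers tested, 4 were higher and 4 lower with Hottip guides than in the control (median 0.04), from Lama1, a laminin chain, at −1.10 (adjusted p = 0.822) to Gata6, a factor of primitive endoderm, at 1.66 (adjusted p = 0.0929). Of the 2 mesoderm markers tested, Eomes differed by 0.88 (adjusted p = 0.553) and Kdr by 0.26. No marker of these 3 lists was called in any comparison, where 0.175% to 0.718% of all tested probes were. Of the 4 fibroblast markers tested, 3 were higher and 1 lower with Hottip guides than in the control (median 1.08). Among the 3, Col3a1 rested on Hottip array 4 as given above, and Dcn was well above background on 2 of 4 Hottip arrays and 0 of 3 control arrays. Col1a1, the lower gene, was so on 0 of 4 Hottip arrays and 1 of 3 control arrays. Nothing is therefore read from these signs or their median. The part that a mixture of cells had in the Snai1 and Zeb2 values was not tested, and in bulk RNA fewer cells of a type cannot be told apart from less RNA per cell.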

How the data were processed

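RNA of 10 ES cell samples (control n = 3, Hottip guides n = 4, labelled Hoxa13 guides n = 3) was labelled with Cy3 and hybridised to Agilent mouse arrays. The authors deposited scanner files of spot intensity (Feature Extraction 11.5.1.1). Their processed signal had the background subtracted and, on all arrays except Hottip replicates 3 and 4, was detrended. The authors also deposited log2 values, which rank spots as median signal minus local background (rank correlation 1) and have nearly equal quantiles on all arrays (sorted values within 0.315, median 0.008); limma is named in the submitters' processing notes. These log2 values, without outlier spots, served as an alternative.

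Log2 of the processed signal minus the 75th percentile of each array's 59305 non-control spots was used, outlier spots were left out and spots of a probe averaged. Probes were named by accession through RefSeq (27656 of 55681 probes), and a gene took its brightest probe. Groups were compared over all 10 arrays with limma 3.58.1 in R 4.3.3 (lmFit, eBayes over all probes), adjusted by Benjamini-Hochberg over 22839 probes well above background on at least 3 arrays, and checked by exact permutation (35 splits of 4 against 3, 20 of 3 against 3). The fit was tested on simulated data. All members were named, and from the wider lists every called gene and, for most of the comparisons described, the largest rise and fall; the genes of the marker lists were chosen after their values were seen. The members, lists and rules were chosen with earlier results of these data known. Alternatives changed the scaling, background correction, filter, slide, replicate block and samples, and 6 were added after seeing the data: the variance prior, the percentile and outlier spots, and the row and column of the slide. Signal over background limits the precision.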

Additional observations from a re-analysis of the deposited data

Results flagged for a closer look

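2 results stood out because the differences of the Hottip arrays and of the arrays labelled Hoxa13 from the shared control differed by a direct test. Hoxa13 itself was not well above background on the arrays so labelled, and 2 of those 3 arrays sat on a slide of their own. Tagln was −2.39 (log2) on the Hottip arrays minus those labelled Hoxa13 (limma adjusted p = 0.0188), with differences from the control of 0.16 and 2.54. Acta2 had a fitted value of −2.25 in the same test (adjusted p = 0.0233). It was well above background on 0 of 4 Hottip arrays, so only a bound on the group means, of at least 4.44-fold, is read from that value. That bound leaves out the spread between arrays. Acta2 also entered the test only through the arrays labelled Hoxa13, so its result does not stand independently of the filter. For Acta2 the arrays labelled Hoxa13 differed from the control by 2.50, with 1 of 3 control arrays well above background. Both kept their sign with each array left out in turn, but the calls were lost in 13 of 32 (Tagln) and 15 of 31 (Acta2) other ways of processing, among them leaving out any single array labelled Hoxa13. On the slide with all groups, which holds 1 array labelled Hoxa13, the Tagln difference was −2.40, and none is read for Acta2, dim on all Hottip arrays. With the slide as a block the adjusted p was 0.127 for Tagln and 0.147 for Acta2. Of the member genes, the 5 with a value on all 4 Hottip arrays (Cdh1, Vim, Snai1, Zeb2 and Twist1) had none of those arrays apart from the rest by Dixon's test, and the other 5, with 3 values each, were not tested.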

How the results depend on the processing

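No member was called. Zeb2 gained a call with normexp and quantile normalization (−1.48 Hottip minus control, −1.12 Hottip minus labelled Hoxa13) and with the authors' values (−1.73, Hottip minus control). Snai1 and Zeb2 kept their signs in both Hottip comparisons under every alternative run. Signs turned in the uncalled members below, and the cause was not tested. Outlier spots were left out of the authors' values too: with them kept, Fn1 and Cdh2 (Hottip minus control) were 0.020 and −0.18 there and Epcam (Hottip minus labelled Hoxa13) 0.12.

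Against the control with Hottip guides, median centring turned Cdh1 (0.11), Vim (0.082) and Zeb1 (0.11). Cdh2 turned with the percentile over probes above background on all arrays (−0.069), normexp (−0.17), normexp with quantile normalization (−0.075), the authors' values (−0.073), the local median subtracted (−0.30) and the mean of its probes (−0.094). Fn1 turned with normexp (0.76), normexp with quantile normalization (0.88), the authors' values (0.85), the 2 arrays that were not detrended left out (0.47), the replicate block (0.48) and the column of the slide (0.67). Leaving out single arrays gave −0.11 to 0.58 for Epcam, −0.050 to 0.32 for Cdh2 and −0.89 to 0.47 for Fn1.

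For the arrays labelled Hoxa13 against the control, the slide as a block, and equally the slide with all groups alone, turned Fn1 (−0.93), Snai2 (−0.38) and Zeb2 (0.087). Snai1 turned with quantile normalization (0.0072) and normexp (0.024), and Zeb1 with the percentile over probes above background (−0.16). Leaving out single arrays gave −0.32 to 0.17 for Snai1 and −0.29 to 1.37 for Snai2.

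Between Hottip arrays and those labelled Hoxa13, Cdh1 turned without the 2 arrays that were not detrended (−0.042) and with the local median subtracted (−0.087), and Epcam with normexp and quantile normalization (0.061) and the authors' values (0.058). Fn1 turned with the slide as a block or its slide alone (0.59). Twist1 turned with median centring (0.18), the percentile over probes above background (0.33), the slide as a block or alone (0.067) and the percentile after outlier spots were left out (0.094). Leaving out single arrays gave −0.10 to 0.21 for Cdh1 and −0.28 to 0.46 for Twist1.

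Counts of called probes moved more than the members. With Hottip guides against the control, 164 probes were called in the main analysis, 109 with the authors' values, 5 when a probe had to be above background on all arrays, 36 without the 2 arrays that were not detrended, 107 with outlier spots kept, 52 with the column and 51 with row and column as terms. Leaving out single arrays gave 56 (control 2) to 240 (control 3), with 100 each without Hottip 3, Hottip 4 or control 1.

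For the arrays labelled Hoxa13 against the control, 40 probes were called, against 88 with median centring, 16 with no filter, 0 (limma, 1485 at an unadjusted p under 0.05) when above background on all arrays, 64 with the slide as a block, 22 with the 2 groups alone, 25 with an intensity trend, 8 with the percentile after outlier spots were left out, 17 with outlier spots kept, 20 with the row, 16 with the column and 8 with both. Leaving out single arrays gave 3 (control 2, or Hoxa13 3) to 130 (control 3), with 5 and 13 without Hoxa13 1 and 2, 8 without control 1, 61 without Hottip 1 and 24 without Hottip 4.

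Between Hottip arrays and those labelled Hoxa13, 87 probes were called, against 138 with the percentile over probes above background on all arrays, 168 with normexp and quantile normalization, 31 with no filter, 0 (1214 at an unadjusted p under 0.05) when above background on all arrays, 48 on the slide with all groups, 34 without the 2 arrays that were not detrended, 150 with the local median subtracted, 143 with the variance prior from tested probes, 33 with the percentile after outlier spots were left out, 22 with the column and 42 with row and column. Leaving out single arrays gave 11 (Hoxa13 2) to 116 (control 3), with 26 and 25 without Hoxa13 1 and 3, 52, 46, 56 and 39 without Hottip 1 to 4 and 55 without control 2.

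With the replicate number as a block, 13, 2 and 8 probes were called in the 3 comparisons in the same order. The numbers were not taken as pairing the samples, since the correlations of same-numbered arrays ran from −0.233 to 0.141. Dim probes limit what can be told: Snai2 was well above background on 6 arrays and Zeb2 on 7.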

Other observations

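The share of called probes that were higher differed between ways of scaling and background correction, and the cause was not tested. In Hottip minus control the share of called probes that were higher was 59.1%, and 40.8% with the local median subtracted. For the arrays labelled Hoxa13 minus control it was 35%, against 72.1% with normexp, 13% with the percentile over probes above background on all arrays and 0% (of 8 called) with the percentile after outlier spots were left out. Between Hottip arrays and those labelled Hoxa13 it was 71.3%, against 87.7% and 90.9% with those 2 percentiles and 38% with the local median subtracted. The median difference of all tested probes was −0.03, 0.19 and −0.26 in these comparisons, and ranged over the scalings from −0.29 to 0.22, −0.22 to 0.23 and −0.36 to 0.06.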
